A study of Mus musculus with 20 samples.

Results

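The Cyp2 genes encode the mouse CYP2 family of cytochrome P450 enzymes, and they are described here in 5 organs of wild-type (WT) and Nsun6-knockout (KO) mice. Members were the rows of the count table whose symbol is Cyp2 followed by a letter and digits, with rows named as pseudogenes left out. This gave 48 of the 55401 genes of the table, in 13 subfamilies from Cyp2a to Cyp2w. The KO mice lack exons 3 and 4 of Nsun6, which encodes an RNA methyltransferase, and were made with CRISPR/Cas9 in fertilized C57BL/6J eggs. The KO mice were homozygous and came from crosses of heterozygotes, so every organ carries the deletion, and the WT mice carry the intact gene. Per the methods, the organs (heart, kidney, liver, small intestine and spleen) came from female mice aged 8 weeks and were ground, and no treatment is named. The methods do not say whether whole organs or parts were used. There were 2 libraries for each organ and genotype, numbered 1 and 2 in the labels, and 20 in all. The paper's results, not its methods, call the 2 libraries biological replicates. The methods do not say which organs share a mouse, and the labels name no segment of the intestine. The p-values below measure the spread between these libraries only.

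Cytochrome P450 enzymes carry a heme group and insert oxygen into their substrates with electrons passed on by the reductase encoded by Por. Enzymes of the CYP2 family sit in the membrane of the endoplasmic reticulum, most of all in hepatocytes, and oxidize drugs, steroids, fatty acids and small toxic compounds. In mice several members differ between the sexes in the liver, and others are induced through the nuclear receptors CAR (Nr1i3) and PXR (Nr1i2).

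The levels below are TPM, computed from the deposited counts and the exon length of each gene, so that genes can be compared within a library. Total counts ranged from 15897446 in heart KO 1 to 44508197 in liver KO 2. Nsun6 itself was counted at 5.48 and 2.697 TPM in WT and 5.59 and 2.44 TPM in KO in the small intestine. The liver gave 2.86 and 1.45 TPM in WT and 1.24 and 1.37 TPM in KO, and the spleen 4.84 and 3.42 TPM in WT and 2.91 and 4.88 TPM in KO. In the kidney it stood at 4.09 and 2.57 TPM in WT and 2.26 and 1.902 TPM in KO, and in the heart at 3.11 and 3.74 TPM in WT and 2.41 and 3.27 TPM in KO. The KO values were below the WT values in liver and kidney and overlapped with them elsewhere. The row sums the reads of all exons of the gene, so it does not test the loss of the 2 deleted ones.

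Defining markers of each organ were present in all of its libraries. Kidney tubule markers (6 genes) summed to 85398 and 124102 TPM in WT and 112014 and 138201 TPM in KO in the kidney, cardiomyocyte markers (6 genes) to 42003 and 36257 TPM in WT and 38797 and 42880 TPM in KO in the heart and lymphocyte markers (6 genes) to 2955 and 2436 TPM in WT and 2236 and 1766 TPM in KO in the spleen. Enterocyte markers (6 genes) gave 18345 and 33850.4 TPM in WT and 29929 and 36134 TPM in KO in the small intestine. The hepatocyte list (7 of its 8 genes matched), led by Alb, summed to 156873 and 244531 TPM in WT and 222352 and 212837 TPM in KO in the liver. Some libraries also held transcripts of other tissues. In the spleen the same hepatocyte list summed to 14.02 and 5800.3 TPM in WT and 195 and 274 TPM in KO, so that spleen WT 2 stood far above the other 3 spleen libraries. The kidney tubule list, led by Kap, reached 183 TPM in spleen KO 1 and at most 2.88 TPM in the other spleen libraries. The 4 intestine libraries split by number. A list of 7 genes of the proximal small intestine, led by Fabp1, summed to 98.7 and 745 TPM in number 1 and 23284 and 31254 TPM in number 2, WT first. A list of 5 distal genes gave 41963 and 41294 TPM in number 1 and 74.4 and 85.3 TPM in number 2, with the bile acid binding protein gene Fabp6 the highest of them in number 1. In the heart, lung and airway markers (6 genes, led by Scgb1a1) summed to 151 and 318 TPM in WT and 31.7 and 156 TPM in KO, and 4 adipose markers to 4.405 and 510.3 TPM in WT and 10.7 and 191 TPM in KO.

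The family is arranged in 4 blocks on GRCm38. On chromosome 7, 13 members of Cyp2a, Cyp2b, Cyp2f, Cyp2g, Cyp2s and Cyp2t lie between 25802475 and 27158668, and Cyp2e1 and Cyp2r1 lie elsewhere on that chromosome. Chromosome 19 holds 14 Cyp2c genes between 39007019 and 40187333, with Cyp2c23 apart from them. The 8 Cyp2d genes lie on chromosome 15 between 82370527 and 82794294, and the 8 Cyp2j genes on chromosome 4 between 96027534 and 96664154. Cyp2u1 on chromosome 3 and Cyp2w1 on chromosome 5 stand alone. Identity within the blocks varied. In the GENCODE M21 transcripts, the coding sequence of 22 of the 48 members was over 90% identical to that of another member. The closest pair was Cyp2a4 and Cyp2a5, with 1459 of 1482 coding bases identical (98.4%). Cyp2c67 and Cyp2c69 were 97.7% identical, Cyp2c65 and Cyp2c66 96.3%, and Cyp2c37 and Cyp2c50 96.1%. Of all windows of 75 bases along its longest transcript, Cyp2c40 shared 57.1% and Cyp2c69 43.2% exactly with another Cyp2 gene or pseudogene, Cyp2a5 25.5% and Cyp2a4 22.1%. At least 10% of windows were shared in 14 members and none in 19, among them Cyp2e1, Cyp2f2, Cyp2u1 and every Cyp2j gene. Exons of 11 members overlap those of another annotated gene, among them Cyp2u1 (4930534D22Rik), Cyp2t4 (Egln2), Cyp2f2 (Gm15883), Cyp2a4 (Gm42375) and Cyp2s1 (Gm26707). Reads from shared stretches can map to either copy, so levels within such groups are uncertain. The command stored with the counts did not ask for reads with several mapping places to be counted.

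The Cyp2 family was above all a liver family. Its members together took between 1.98% and 2.43% of all TPM in the 4 liver libraries. The share was between 0.367% and 0.427% in the kidney and between 0.0516% and 0.332% in the small intestine. In the heart it was between 0.00289% and 0.009396%. Spleen WT 1, KO 1 and KO 2 had 0.00392%, 0.00561% and 0.00711%, and spleen WT 2 had 0.0855%. Liver, kidney and small intestine ranges did not overlap. A mean of at least 1 TPM in at least 1 organ was reached by 43 members, and 5 members (Cyp2b19, Cyp2b23, Cyp2j12, Cyp2j13 and Cyp2w1) stayed under 1 TPM in all. The highest mean was in the liver for 28 members, in the small intestine for 10, in the kidney for 9 and in the spleen for 1.

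**Figure D1:**
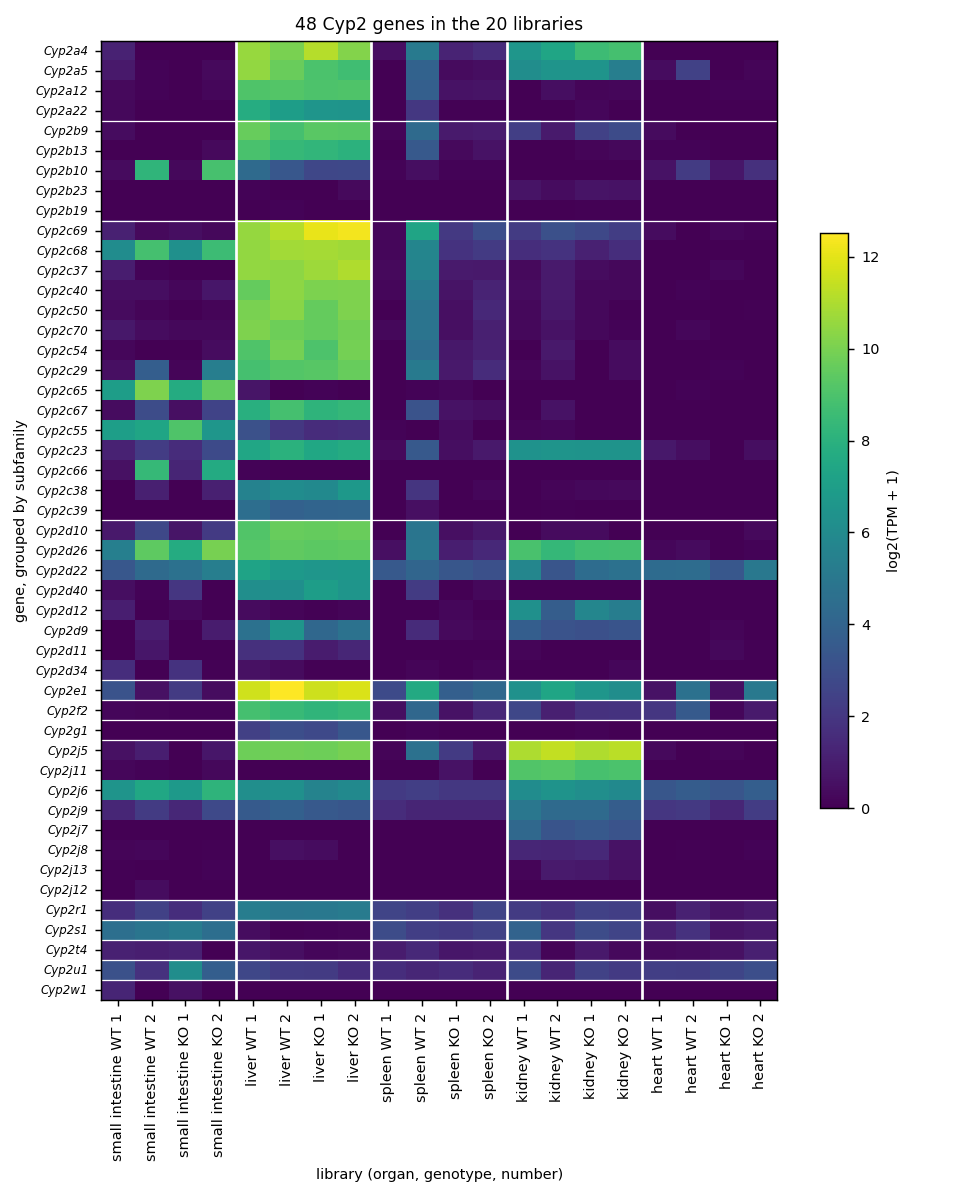
Level of each of the 48 Cyp2 genes (rows, grouped by subfamily) in each of the 20 libraries (columns), as log2(TPM + 1) by colour. The liver columns are bright over most rows, Cyp2j5 and Cyp2j11 are brightest in the kidney, Cyp2c65 and Cyp2c55 in the small intestine, and spleen WT 2 carries a faint copy of the liver pattern.

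Organs were compared in 1 edgeR fit of all 20 libraries with TMM scaling, in which 45 members passed the filter on low counts (Cyp2b19, Cyp2j12 and Cyp2w1 did not). A gene was called for an organ when it was over 2-fold higher there than in each of the other 4 organs, each with an adjusted p under 0.05. The liver call was met by 25 of the 45 members, against 5.15% of all 23159 genes tested. The small intestine call was met by 5 members (7.11% of all genes) and the kidney call by 4 (4.75% of all genes). No member was called for the spleen or the heart, where 8.93% and 8% of all genes were called. Some members passed the filter through 1 organ only. Among them were Cyp2c39 and Cyp2g1 through the liver, Cyp2j7 and Cyp2j11 through the kidney and Cyp2c66 through the small intestine. The direction of such members was fixed by the filter, so the counts of organ calls only describe these libraries. By subfamily, the liver calls fell on all 4 Cyp2a genes, on 2 of 5 Cyp2b genes, on 11 of 15 Cyp2c genes, on 4 of 8 Cyp2d genes and on the single Cyp2e, Cyp2f, Cyp2g and Cyp2r genes. No Cyp2j gene was called for the liver, and 3 of 8 were called for the kidney. The liver call of Cyp2a4 was lost in 13 of 29 alternatives and that of Cyp2c68 in 15 of 29. Taken over all 34 organ calls and their alternatives, 913 of 987 values kept the call. The WT libraries alone gave 14 liver calls, 2 intestine calls and 3 kidney calls (3.09%, 4.35% and 2.68% of all genes). Scaling by library size in place of TMM gave 24 liver calls (3.41% of all genes), and liver levels then fell by 1.20 on the log2 scale against the spleen and by 0.79 against the kidney.

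**Figure D2:**
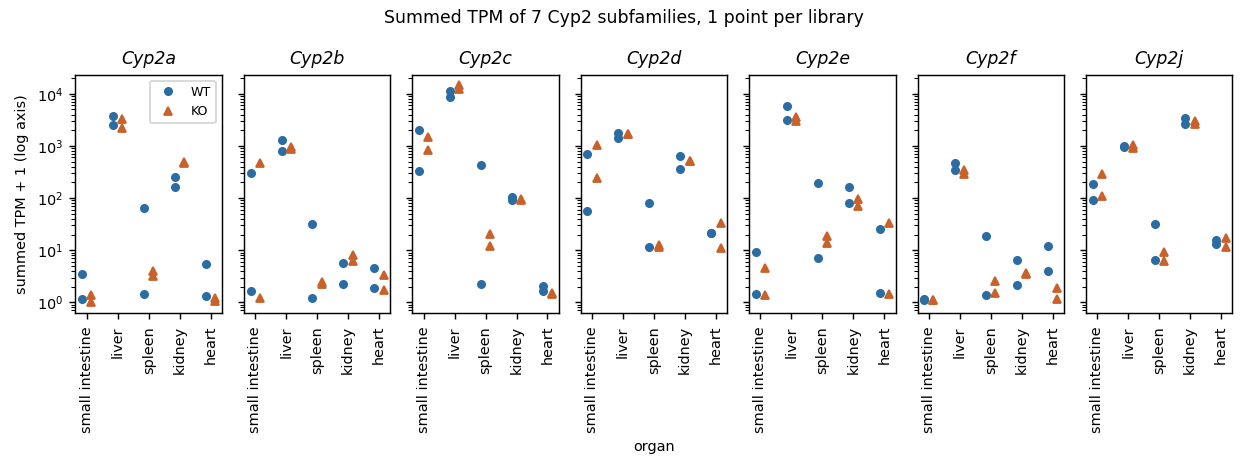
Summed TPM + 1 of 7 subfamilies (log axis) in each organ, with 1 point per library, WT as circles and KO as triangles. Cyp2c, Cyp2a and Cyp2e are highest in the liver and Cyp2j in the kidney, and spleen WT 2 lies above the other spleen libraries in Cyp2a, Cyp2c, Cyp2e and Cyp2f.

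Cyp2e1, which oxidizes ethanol and acetaminophen (chr7:140763739-140774987, plus strand), had the highest mean of the family in the liver, at 3156 and 5900.1 TPM in WT and 3029 and 3553 TPM in KO. It took 17.4% of the summed Cyp2 level of that organ. The kidney had 79.5 and 164 TPM in WT and 96.2 and 68.96 TPM in KO, and the liver values exceeded all kidney values. The liver stood 6.05 log2 units above the kidney, the nearest organ, in the TMM-scaled fit (largest edgeR adjusted p over the 4 organs = 0.00667). Cyp2c69, a gene known as female-biased in mouse liver, was second at 1511 and 2212 TPM in WT and 4416 and 5069 TPM in KO, and Cyp2c68 followed at 1444 and 1793 TPM in WT and 1813 and 1733 TPM in KO. Cyp2e1 and Cyp2c69 overlapped over the 4 liver libraries, so their order is not set beyond the spread. These 3 genes made up 39.6% of the family level in the liver, and the first 10 made up 74.5%. The other members of that group were Cyp2c37, Cyp2a4, Cyp2c40, Cyp2c50, Cyp2c70, Cyp2j5 and Cyp2a5, with means from 1639.8 down to 788 TPM.

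Among the remaining liver members, Cyp2d10 led its subfamily at 565 and 780.3 TPM in WT and 759 and 798 TPM in KO. Cyp2b9, another female-biased gene, led Cyp2b at 783 and 455 TPM in WT and 637 and 612 TPM in KO. Cyp2f2, best known from the club cells of the airway, was also high in the liver, at 462 and 345 TPM in WT and 291 and 339 TPM in KO. Cyp2g1, known from the olfactory mucosa, was low, at 4.16 and 7.12 TPM in WT and 5.804 and 9.49 TPM in KO in the liver and with at most 2 counts in any library of another organ. Cyp2r1, a vitamin D 25-hydroxylase, was measured in every library, at 39.1 and 30.03 TPM in WT and 31.1 and 35.6 TPM in KO in the liver and between 0.3904 and 5.04 TPM elsewhere. Its call for the liver had an edgeR adjusted p of at most 2.82e-06 over the 4 other organs. Of the 6 members known as female-biased in mouse liver (Cyp2b9, Cyp2b13, Cyp2a4, Cyp2c69, Cyp2c40 and Cyp2c39), all were called for the liver, as were 25 of the 45 members tested and 5.15% of all genes. Cyp2b13 was at 486 and 332 TPM in WT and 305 and 267 TPM in KO and Cyp2c39 at 22.4 and 13.9 TPM in WT and 15.3 and 16.1 TPM in KO. Of the male-biased pair, Cyp2d9 stood at 24.1 and 91.6 TPM in WT and 17.4 and 25.7 TPM in KO, and Cyp2j5 stood at 868 and 909 TPM in WT and 856 and 988 TPM in KO.

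In the kidney, Cyp2j5, an arachidonic acid epoxygenase of the proximal tubule, alone made up 57.4% of the family level, at 1992 and 2659 TPM in WT and 2109.9 and 2423 TPM in KO. All kidney values exceeded all liver values in TPM. In the TMM-scaled fit the liver stood -0.55 log2 units from the kidney with an SE of 1.06, and Cyp2j5 was not called for the kidney. Cyp2j11 (chr4:96294508-96348662, minus strand) was second in the kidney, at 554 and 604 TPM in WT and 466 and 496 TPM in KO, and had 0 counts in all liver and heart libraries, 10 over the 4 intestine libraries and 12 in spleen KO 1. It was called for the kidney (largest edgeR adjusted p = 1.04e-05), the only organ through which it passed the filter. Cyp2j7 had 246, 139, 156 and 123 counts in the kidney and none in the other 16 libraries, where 3 counts would be 0.109 to 0.299 TPM. Cyp2d12 was the only kidney call outside Cyp2j, at 77.1 and 12.1 TPM in WT and 53.4 and 38.99 TPM in KO. Cyp2j13, the fourth, was near the limit of detection, between 0.138 and 0.857 TPM. Cyp2d26 followed in the kidney at 491 and 329 TPM in WT and 426 and 436 TPM in KO and was high in 3 organs, with means of 666 ± 44.1 TPM in the liver, 484 ± 442 TPM in the small intestine and 420.3 ± 67.3 TPM in the kidney (SD, n = 4). None of its contrasts among these organs passed the test. Cyp2c23, an epoxygenase apart from the other Cyp2c genes, was at 82.3 and 87.99 TPM in WT and 85.9 and 85 TPM in KO in the kidney and 167 and 252 TPM in WT and 173 and 207 TPM in KO in the liver. The liver levels were all higher, but the contrast did not pass the test (log2 fold change 2.05, edgeR adjusted p = 0.055).

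Of the 10 partners of the family, 4 were called for the liver (Por, Cyb5a, Pgrmc1 and the heme synthesis gene Alas1) and 1 for the spleen (Hmox1). Of 17 regulators, 7 were called for the liver (Ahr, Cebpa, Cux2, Foxa2, Onecut1, Ppara and Rxra) and 1 for the small intestine (Nfe2l2). These stand beside 5.15% of all genes called for the liver, 8.93% for the spleen and 7.11% for the small intestine, so the single spleen and intestine calls were near the background.

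The small intestine call took 5 of 45 members, beside 7.11% of all genes. These were Cyp2c65 and Cyp2c66, near copies of each other, and Cyp2c55, together with Cyp2s1 and Cyp2u1. The Cyp2c66 call was lost in 19 of 29 alternatives. Cyp2c65 stood at 125 and 1086 TPM in WT and 208 and 727 TPM in KO, and no library of another organ exceeded 0.6501 TPM. Cyp2c55, an inducible epoxygenase, gave 127 and 164 TPM in WT and 532 and 94.9 TPM in KO against at most 7.499 TPM in the liver. Cyp2s1, known from epithelia, was even over the libraries, at 22.5 and 28.3 TPM in WT and 35.9 and 21.7 TPM in KO. By mean level, Cyp2c68 came after Cyp2c65 and Cyp2d26 in the small intestine, at 66.1 and 450.1 TPM in WT and 76.4 and 389.8 TPM in KO. Its highest level was in the liver. Cyp2u1, a fatty acid hydroxylase, was at 7.596 and 2.44 TPM in WT and 69.9 and 12.4 TPM in KO, with KO 1 far above the others. Its call was lost in 6 of 30 alternatives, among them the fit without KO 1. In 1 more, with the WT libraries alone, the value of Cyp2u1 changed sign. Cyp2b10, at 0.307 and 297 TPM in WT and 0.199 and 472 TPM in KO, and Cyp2j6, at 87.7 and 176 TPM in WT and 109 and 287 TPM in KO, also had their highest means in the small intestine. Against the liver they did not pass the test (edgeR adjusted p = 0.0782 for Cyp2b10 and 0.0967 for Cyp2j6). Cyp2b10 was near 0 in both number 1 libraries.

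Beyond these organs the levels were low. In the heart the first 3 members were Cyp2d22 at 20 and 20.5 TPM in WT and 9.58 and 31.3 TPM in KO, Cyp2e1 at 0.5102 and 24.3 TPM in WT and 0.4198 and 32.1 TPM in KO and Cyp2j6 at 9.16 and 11.4 TPM in WT and 8.84 and 12.4 TPM in KO. Cyp2d22 and Cyp2j6 were present in all libraries of the series. Cyp2e1 was high in heart WT 2 and KO 2 only, the libraries whose names in the file header carry the extra word pre. The adipose markers were also high in those 2 libraries, and their part in the Cyp2e1 level was not tested. Cyp2t4 was the single member highest in the spleen, at 0.926 and 1.68 TPM in WT and 0.699 and 0.8396 TPM in KO. Cyp2w1 was counted in the number 1 libraries of the small intestine only, with 27 counts in WT and 7 in KO. In such ground tissue, fewer cells of a type and less RNA per cell cannot be told apart in any of these comparisons.

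The promoters of the leading members are shown because they belong to genes of 3 different organ patterns. RefSeq promoter windows on GRCm38.p6 were found for 40 of the 48 members. RefSeq places the start of some genes elsewhere than the annotation used for the counts, so the window of Cyp2e1, and by fewer bases those of other genes shown, lies partly within the gene span of the count table. The 150 bases before the RefSeq start of the highest member of the liver, the kidney and the small intestine are printed below, 5′ to 3′, with matches in capitals. The motifs searched on both strands were the TATA box TATAAA, the HNF4 core CAAAGTCC, the HNF1 motif GTTAAT and the C/EBP motif TTGCNNAA. None of the matches printed overlaps another.
Cyp2e1 (chr7:140763669-140763818, plus strand): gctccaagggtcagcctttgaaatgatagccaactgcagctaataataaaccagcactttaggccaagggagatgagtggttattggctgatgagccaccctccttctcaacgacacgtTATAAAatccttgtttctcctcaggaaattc
Cyp2j5 (chr4:96664120-96664269, minus strand): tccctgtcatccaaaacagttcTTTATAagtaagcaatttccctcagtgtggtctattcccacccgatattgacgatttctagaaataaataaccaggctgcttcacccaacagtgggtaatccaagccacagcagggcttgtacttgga
Cyp2c65 (chr19:39060856-39061005, plus strand): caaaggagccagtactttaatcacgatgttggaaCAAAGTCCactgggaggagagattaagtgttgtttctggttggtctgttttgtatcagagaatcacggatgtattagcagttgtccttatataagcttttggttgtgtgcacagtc
Counting the last base before the start as -1, Cyp2e1 had TATAAA at -31 to -26. Cyp2j5 had only a TATA match on the opposite strand, at -128 to -123. Cyp2c65 had CAAAGTCC at -116 to -109 and no TATAAA in the window printed. Over the 250 bases before the start, TATAAA was found in 18 of 42 Cyp2 promoters (12.4% of all 32851 promoters), CAAAGTCC in 9 (1.20% of all), TTGCNNAA in 12 (9.56% of all) and GTTAAT in 6 (6.43% of all). Cyp2c65 was among the 18, through a match outside the window printed. By the organ of the highest level, CAAAGTCC was in 7 of 25 liver promoters, 2 of 8 intestine promoters and 0 of 8 kidney promoters. GTTAAT was found in 6 liver promoters and in no kidney or intestine promoter. TATAAA was in 14 liver, 3 intestine and 1 kidney promoters, and TTGCNNAA in 7 liver, 1 intestine and 4 kidney promoters. Promoters of near copies are not independent of each other, and a match is not a binding site.

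A further 5 promoters, chosen after their values were seen, are shown because their genes are related and differ in level. Cyp2a4 and Cyp2a5 were both high in the liver and had log2 fold changes of opposite sign in the KO liver. Cyp2b9 was highest in the liver and Cyp2b10 in the small intestine, and Cyp2c69 had the highest log2 fold change in the KO liver.
Cyp2a4 (chr7:26307042-26307191, plus strand): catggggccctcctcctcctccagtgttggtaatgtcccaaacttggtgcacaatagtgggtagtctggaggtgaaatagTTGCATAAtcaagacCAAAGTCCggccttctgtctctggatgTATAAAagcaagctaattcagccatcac
Cyp2a5 (chr7:26835189-26835338, plus strand): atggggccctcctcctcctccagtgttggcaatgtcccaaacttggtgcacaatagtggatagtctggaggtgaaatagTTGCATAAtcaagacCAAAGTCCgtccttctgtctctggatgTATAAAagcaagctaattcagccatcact
Cyp2b9 (chr7:26173259-26173408, plus strand): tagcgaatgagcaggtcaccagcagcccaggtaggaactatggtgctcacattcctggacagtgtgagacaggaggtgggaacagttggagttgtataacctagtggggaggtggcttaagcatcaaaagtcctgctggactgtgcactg
Cyp2b10 (chr7:25897508-25897657, plus strand): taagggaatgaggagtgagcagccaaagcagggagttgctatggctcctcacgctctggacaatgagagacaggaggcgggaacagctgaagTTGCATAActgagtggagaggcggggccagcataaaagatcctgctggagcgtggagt
Cyp2c69 (chr19:39886770-39886919, minus strand): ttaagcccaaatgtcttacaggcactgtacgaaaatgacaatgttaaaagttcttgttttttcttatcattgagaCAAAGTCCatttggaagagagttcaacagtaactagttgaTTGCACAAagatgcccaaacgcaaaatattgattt
The windows of Cyp2a4 and Cyp2a5 were 96.7% identical and both held TTGCATAA, CAAAGTCC and TATAAA in the same order. Those of Cyp2b9 and Cyp2b10 were 73.2% identical, and the printed window of Cyp2b10 held TTGCATAA. Over 250 bases both genes had a match to TTGCNNAA. Cyp2c69 held CAAAGTCC and TTGCACAA. The absence of a match says only that these letters are not in the window.

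Within the small intestine, Cyp2 levels differed between the library numbers in the same libraries as the proximal and distal markers did. Number 2 was compared with number 1 in the 4 intestine libraries with genotype as a covariate, with calls at an adjusted p under 0.1 and over 2-fold, and 22 members passed the filter. Of these, 11 were higher in number 2 (4.52% of all 17680 genes) and 3 were higher in number 1 (3.11% of all genes). The median log2 difference of the 22 members was 2.35, against -0.03 over all genes. Some members passed the filter through 1 library number only. Among them were Cyp2b10, Cyp2c29, Cyp2c38, Cyp2c67 and Cyp2d9 through number 2, and Cyp2d34 and Cyp2e1 through number 1. The direction of such members was fixed by the filter, so the counts and the median only describe these libraries. Cyp2b10, the classical target of CAR, was almost absent from number 1 at 0.307 and 0.199 TPM (WT, then KO) and reached 297 and 472 TPM in number 2. Its log2 fold change was 10.80 with an SE of 0.43 (edgeR adjusted p = 0.01). Cyp2c66 went from 0.5001 and 1.45 TPM to 332 and 198 TPM (log2 fold change 8.47, SE 0.71, edgeR adjusted p = 0.0238). Its near copy Cyp2c65 went from 125 and 208 TPM to 1086 and 727 TPM (log2 fold change 2.81, SE 0.42, edgeR adjusted p = 0.0536). Both groups of libraries were far apart for Cyp2c66 and closer for Cyp2c65.

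**Figure D3:**
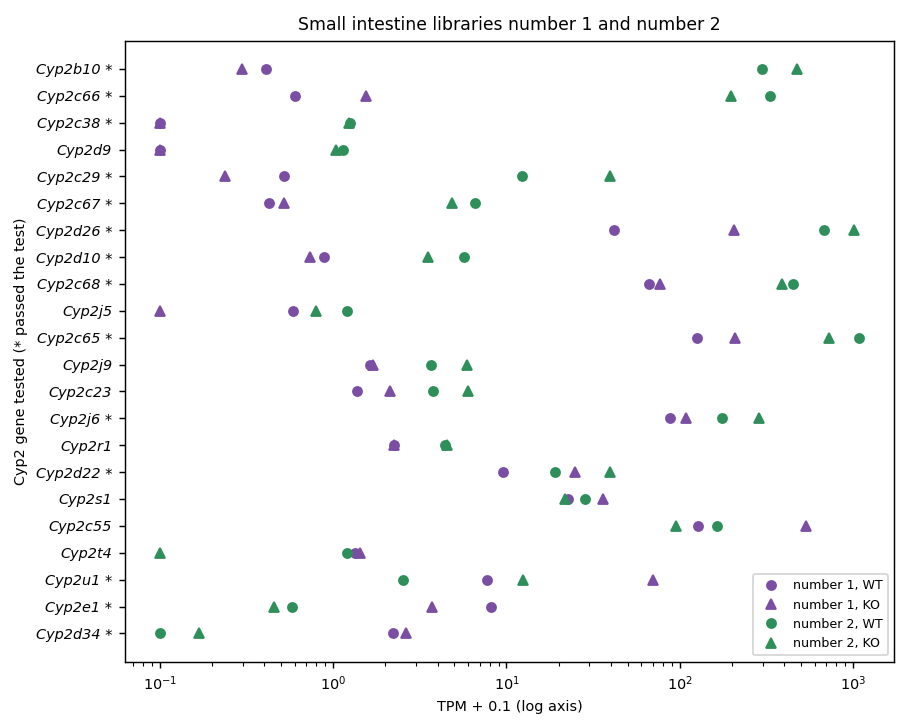
TPM + 0.1 (log axis) of the 22 Cyp2 genes tested in the small intestine, with number 1 libraries in purple, number 2 in green, WT as circles and KO as triangles. Cyp2b10, Cyp2c66 and Cyp2c29 show a wide gap between the numbers, whereas Cyp2s1 and Cyp2c55 overlap.

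Cyp2d26 rose from 41.5 and 206 TPM to 681 and 1008 TPM (log2 fold change 3.52, SE 0.53, edgeR adjusted p = 0.058), and Cyp2c68 from 66.1 and 76.4 TPM to 450.1 and 389.8 TPM (log2 fold change 2.91, SE 0.23, edgeR adjusted p = 0.0188). Cyp2c29, a second CAR target, went from 0.424 and 0.137 TPM to 12.2 and 39.4 TPM. Of the 4 CAR and PXR targets, 3 were tested, and 2 (Cyp2b10 and Cyp2c29) were called in number 2 (4.52% of all genes). Both passed the filter through number 2 only, so their direction was fixed by it. Cyp2c55 had a negative value that did not pass the test (log2 fold change -0.71), and Cyp2c37 was not tested. Cyp2d10 went from 0.787 and 0.636 TPM to 5.57 and 3.45 TPM, and Cyp2c67 from 0.328 and 0.424 TPM to 6.496 and 4.78 TPM. The other members called in number 2 were Cyp2d22, Cyp2j6 and Cyp2c38, with Cyp2d22 and Cyp2j6 changed least (log2 fold changes of 1.18 and 1.55). Cyp2c38 had 0 counts in both number 1 libraries and 38 and 34 counts in number 2. In the opposite direction, Cyp2e1 stood at 8.08 and 3.595 TPM in number 1 and 0.481 and 0.357 TPM in number 2 (log2 fold change -3.35, SE 0.58, edgeR adjusted p = 0.0699). The 4 adipose markers were higher in the same libraries, at 128 and 84.1 TPM in number 1 and 1.101 and 0.453 TPM in number 2, led by Cfd in 3 of the 4 libraries, and all 4 were called for number 1 (3.11% of all genes). Their part in the Cyp2e1 difference was not tested. Cyp2d34 had 72 and 67 counts in number 1 and 0 and 2 in number 2. Cyp2u1 was at 7.596 and 69.9 TPM in number 1 and 2.44 and 12.4 TPM in number 2, lower in number 2 within each genotype. Leaving out KO 1 leaves 3 libraries, so that the genotype term had to be dropped too, and its difference was then 0.23. Of the genes that serve these enzymes, 6 of 10 partners were also higher in number 2 (4.52% of all genes), among them Por at 14.1, 77.5, 36.3 and 89.7 TPM in WT 1, WT 2, KO 1 and KO 2. Of 16 regulators tested, 3 were called in number 2 and 0 in number 1 (4.52% and 3.11% of all genes), with 9 positive and 7 negative values. Among the 3 was the receptor gene Nr1i3, at 0.367 and 0.665 TPM in number 1 and 11.7 and 9.73 TPM in number 2 (edgeR adjusted p = 0.0288). Nr1i2 did not pass the test. At an adjusted p under 0.05, 3 members (Cyp2b10, Cyp2c66 and Cyp2c68) remained called in number 2 and none in number 1 (2.07% and 1.33% of all genes). Without WT 2 or KO 2, again with no genotype term, 6 and 5 members were called in number 2 (1.49% and 1.4% of all genes) and none in number 1 (0.742% and 0.701% of all genes).

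KO was compared with WT organ by organ, and a call needed an adjusted p under 0.1 with a change of over 2-fold. No Cyp2 member was called in any organ by edgeR. The share of all genes called was 0% for small intestine, 0.0509% for liver, 0.223% for spleen and 0% for both kidney and heart. DESeq2 called 2 members in the liver (0.356% of all genes), 1 in the heart (0.0107% of all genes) and none in the small intestine, spleen and kidney (0.343%, 1.34% and 0% of all genes). At an unadjusted p under 0.05, edgeR had 1 of 22 members in intestine, 7 of 35 in liver, 0 of 26 in spleen, 1 of 25 in kidney and 2 of 9 in heart. The same rule took 2.39%, 4.7%, 5.14%, 0.638% and 0.703% of all genes in these organs, in this order.

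In the liver DESeq2 called Cyp2c69 and Cyp2a5. Cyp2c69 stood at 1511 and 2212 TPM in WT and 4416 and 5069 TPM in KO, so that both KO libraries lay above both WT libraries. This was a rise of 1.48 on the log2 scale (SE 0.36) that passed in DESeq2 (adjusted p = 0.000586) and not in edgeR (adjusted p = 0.775). Cyp2a5, a coumarin hydroxylase, stood at 1425 and 814 TPM in WT and 498 and 416 TPM in KO, again without overlap. Its value fell by 1.06 on the log2 scale (SE 0.25), with an adjusted p of 0.00409 in DESeq2 and 0.775 in edgeR. Its near copy Cyp2a4, a steroid 15-alpha-hydroxylase, gave 1519 and 1026 TPM in WT and 2221 and 1184 TPM in KO, with overlapping genotypes (log2 fold change 0.63, SE 0.33, edgeR adjusted p = 0.999). Since these near copies share windows of sequence, how reads were divided between Cyp2a4 and Cyp2a5, or among Cyp2c40, Cyp2c67, Cyp2c68 and Cyp2c69, bears on these values. Cyp2c68 was at 1444 and 1793 TPM in WT and 1813 and 1733 TPM in KO and Cyp2c67 at 239.9 and 449.7 TPM in WT and 278 and 319.9 TPM in KO, both with overlap. Cyp2c40 was at 758 and 1349 TPM in WT and 1080.2 and 1112 TPM in KO. Of the 4 CAR and PXR targets, 2 had a positive and 2 a negative value, and none was called by edgeR (0.0509% of all genes). Cyp2b10 was at 18.8 and 9.66 TPM in WT and 5.37 and 5.51 TPM in KO (log2 fold change -1.15, SE 0.27, edgeR adjusted p = 0.775) and Cyp2c55 at 7.499 and 3.05 TPM in WT and 2.02 and 2.24 TPM in KO, whereas Cyp2c37 was at 1457 and 1344 TPM in WT and 1649.6 and 2109 TPM in KO (log2 fold change 0.60, SE 0.27, edgeR adjusted p = 0.999). Cyp2c29, the fourth of this list, was at 459.9 and 578 TPM in WT and 616 and 791 TPM in KO. Cyp2b10 and Cyp2c55 were lower and Cyp2c37 and Cyp2c29 higher in both KO libraries than in both WT libraries.

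**Figure D4:**
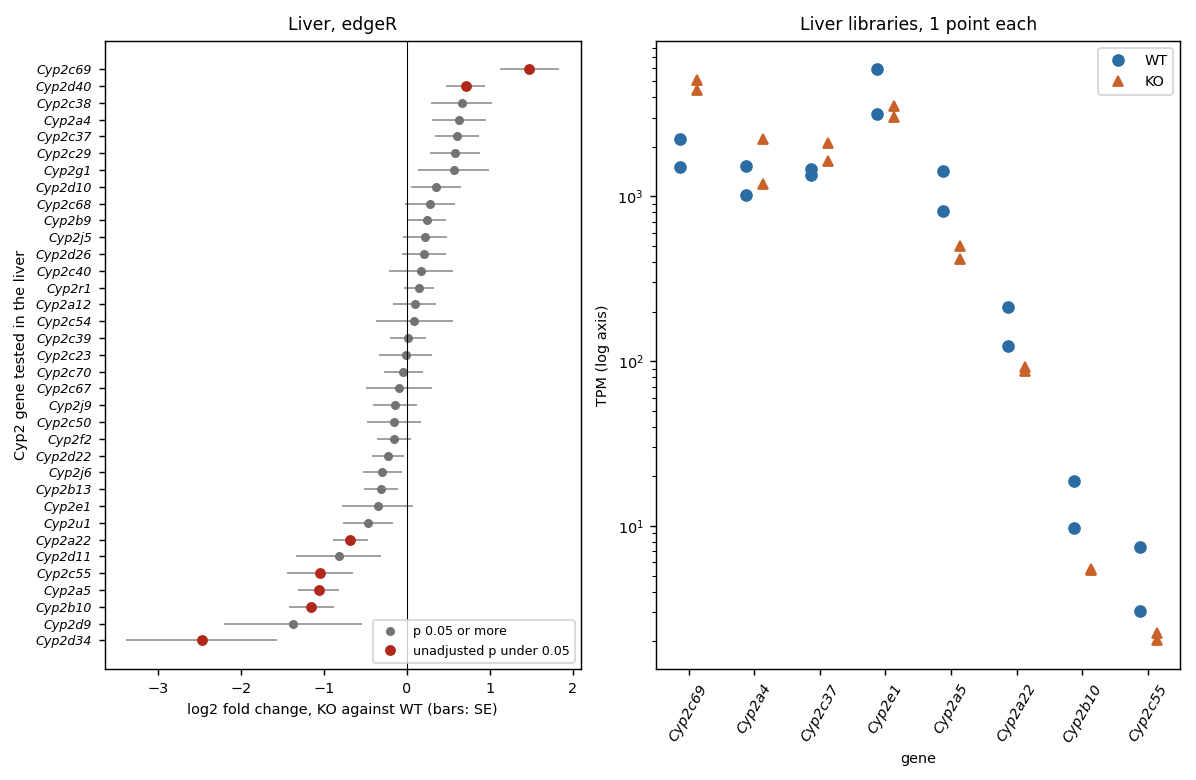
Left, log2 fold change of KO against WT with its SE for the 35 Cyp2 genes tested in the liver, with those at an unadjusted p under 0.05 in red. Right, TPM (log axis) of 8 of these genes in each liver library, WT as circles and KO as triangles, with Cyp2c69 above and Cyp2a5, Cyp2a22, Cyp2b10 and Cyp2c55 below WT in both KO libraries.

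The female-biased genes as a list summed to 5079.9 and 5388 TPM in WT and 8674 and 8259.7 TPM in KO in the liver. Cyp2c69 was the most abundant of them in WT 2 and both KO libraries. It was also the only one higher in both KO than in both WT libraries. Cyp2b13 was lower in both, and Cyp2a4, Cyp2b9, Cyp2c39 and Cyp2c40 overlapped. Of its 6 members, 5 had a positive and 1 a negative log2 fold change, and none was called by edgeR. The median over the list was 0.20, against 0.00 over all 15729 genes. The hepatocyte markers had a median of 0.32, with 7 of 7 positive and none called, and their part in these values was not tested. Over all 35 members tested in the liver, 17 values were positive and 18 negative, with a median of -0.01. The lowest was Cyp2d34, on 17, 10, 2 and 3 counts. Cyp2e1 did not pass the test (log2 fold change -0.35, SE 0.42, edgeR adjusted p = 0.999). Left out in turn, WT 1 gave 2 called members, Cyp2c69 and the male-biased Cyp2d9, and WT 2 gave 4, which were Cyp2a5, Cyp2b10, Cyp2c29 and Cyp2c69. These fits called 1.25% and 1.16% of all genes. With either KO library left out no member was called, and at most 0.0241% of all genes.

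Of the 17 regulators, 1 passed the test in the KO liver, against 0.0509% of all genes. Cux2, a transcription factor known to be female-biased in mouse liver, stood at 3.81 and 3.48 TPM in WT and 8.59 and 10.8 TPM in KO (log2 fold change 1.59, SE 0.21, edgeR adjusted p = 0.0865). Both KO libraries were above both WT libraries, as for Cyp2c69. The repressor gene Bcl6, known to be higher in male liver, was at 16.9 and 4.79 TPM in WT and 3.52 and 14.97 TPM in KO, with overlap. The other regulators did not pass in the liver, among them Nr1i3 at 30.6 and 26.4 TPM in WT and 23.2 and 29.5 TPM in KO and Nr1i2 at 76.3 and 82.9 TPM in WT and 60.01 and 88.7 TPM in KO. None of the 10 partners passed there, with Por, the electron donor of the family, at 93.4 and 126 TPM in WT and 73.4 and 79.5 TPM in KO. In the spleen Fech, the last enzyme of heme synthesis, was the only one of 10 partners called (0.223% of all genes), at 23.3 and 24.1 TPM in WT and 49.1 and 55.8 TPM in KO (log2 fold change 1.30, SE 0.16, edgeR adjusted p = 0.0742).

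In the kidney the highest log2 fold change belonged to Cyp2a4, at 93.9 and 163 TPM in WT and 388 and 453 TPM in KO (log2 fold change 1.54, SE 0.56, edgeR adjusted p = 1). Both KO libraries were above both WT libraries, and the difference did not pass the test. Cyp2a5 was at 69.6 and 89.8 TPM in WT and 89.1 and 40.5 TPM in KO, with overlap. Cyp2j5 (log2 fold change -0.16, SE 0.58, edgeR adjusted p = 1) and Cyp2j11 (log2 fold change -0.36, SE 0.43, edgeR adjusted p = 1) did not pass the test either. The lowest value was that of Cyp2c29, on 4, 18, 0 and 10 counts. Of 25 members tested, 8 values were positive and 17 negative, with a median of -0.33 against -0.03 over all genes. Without WT 1 edgeR called 6 members (Cyp2b9, Cyp2c50, Cyp2c69, Cyp2d12, Cyp2e1 and Cyp2u1), in a fit that called 16.1% of all genes. Without WT 2 it called Cyp2a4 and Cyp2s1, with 2.37% of all genes called. The kidney calls depend on which WT library stands for the group.

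In the small intestine 11 values were positive and 11 negative among 22 members, with a median of -0.05. The highest was Cyp2u1, at 7.596 and 2.44 TPM in WT and 69.9 and 12.4 TPM in KO, with both KO libraries above both WT libraries (log2 fold change 2.88, SE 0.91, edgeR adjusted p = 1). Smooth muscle markers (4 genes, led by Des and Acta2) moved in the same way, at 187 and 245 TPM in WT and 1511 and 809 TPM in KO, and 6 cardiomyocyte markers reached 266 TPM in KO 1 against at most 11.98 TPM in the other intestine libraries. Without KO 1 the log2 fold change of Cyp2u1 was 1.45. The part of these transcripts in the Cyp2u1 value was not tested. The lowest value was that of Cyp2e1 (log2 fold change -1.21, SE 1.53, edgeR adjusted p = 1).

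In the heart 9 members were tested. Cyp2f2 stood at 2.92 and 10.9 TPM in WT and 0.149 and 0.872 TPM in KO, from 43, 284, 2 and 25 counts, without overlap. The difference was -3.66 on the log2 scale (SE 0.79), and it passed in DESeq2 (adjusted p = 0.0292) and not in edgeR (adjusted p = 1). With the replicate number as a block, edgeR called it too (adjusted p = 0.001). Cyp2f2 marks club cells, as does Scgb1a1, which stood at 128 and 273 TPM in WT and 27.3 and 135 TPM in KO in the same libraries. Of the 6 lung and airway markers, 1 was at 0 in heart KO 2 and none in the other 3. Heart KO 1 was lowest in both Cyp2f2 and Scgb1a1, and heart WT 2 highest in both. Between these, heart WT 1 was above KO 2 in Cyp2f2 (2.92 and 0.872 TPM) but not in Scgb1a1 (128 and 135 TPM). With single libraries left out, edgeR called Cyp2f2 without heart WT 1 (log2 fold change -4.20, adjusted p = 0.0058), together with Cyp2a5, in a fit that called 0.12% of all genes. It did not call Cyp2f2 without WT 2 (-2.71, edgeR adjusted p = 1), KO 1 (-3.15, edgeR adjusted p = 1) or KO 2 (-5.11, edgeR adjusted p = 0.311). The part of these transcripts in the Cyp2f2 difference was not tested. The highest value in the heart was that of Cyp2u1, at 3.99 and 3.84 TPM in WT and 5.07 and 7.17 TPM in KO (log2 fold change 0.62, SE 0.31, edgeR adjusted p = 1).

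The spleen had the lowest median of the 5 organs. Of 26 members tested, 25 had a negative and 1 a positive log2 fold change, and the median was -3.11 against 0.01 over all genes. Cyp2c37 was lowest, at 0.251 and 47.2 TPM in WT and 0.903 and 0.807 TPM in KO (log2 fold change -4.67, SE 3.03, edgeR adjusted p = 1). Cyp2e1, Cyp2c69 and Cyp2c68 were the first 3 members by mean in this organ, an order that rests on spleen WT 2. In WT 1, KO 1 and KO 2, Cyp2d22 (10.4, 9.38 and 7.44 TPM) stood above Cyp2c69 and Cyp2c68. Cyp2e1 stood at 6.02 and 195 TPM in WT and 12.9 and 18.1 TPM in KO and Cyp2c69 at 0.179 and 161 TPM in WT and 3.18 and 6.69 TPM in KO. In each case spleen WT 2 was far above the other 3 libraries, and the KO libraries lay between the WT libraries. Without spleen WT 2 the median of the 26 members became 2.16, with 20 values positive and 6 negative. That fit leaves spleen WT 1 as the only WT library, where Cyp2c29 and Cyp2c50 had 0 counts and Cyp2c68 and Cyp2c69 had 4 each. Members nearly absent from WT 1 passed the filter through the KO libraries, so their positive sign was fixed by it.

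Spleen WT 2 held most liver members at a like share of their liver level. For the 29 members with a liver mean of at least 10 TPM, the level in that library was a median of 3.17% of the liver mean, and Alb, the main hepatocyte transcript, stood at 2.63%. The same medians were 0.0105% in WT 1, 0.0985% in KO 1 and 0.163% in KO 2, beside 0.00367%, 0.0849% and 0.125% for Alb. The order of the 4 libraries in these medians was that of Alb. The part of hepatocyte transcripts in the spleen values was not tested. Cyp2d22 was at 10.4 and 16.1 TPM in WT and 9.38 and 7.44 TPM in KO and Cyp2j6 at 3.41 and 3.98 TPM in WT and 3.09 and 3.05 TPM in KO. Both were highest in spleen WT 2 too, but were also present at several percent of their liver mean in the other 3 libraries. Spleen KO 1 held 3.34 TPM of Cyp2j5 and the only spleen counts of Cyp2j11, and it was also the library with kidney tubule transcripts.

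**Figure D5:**
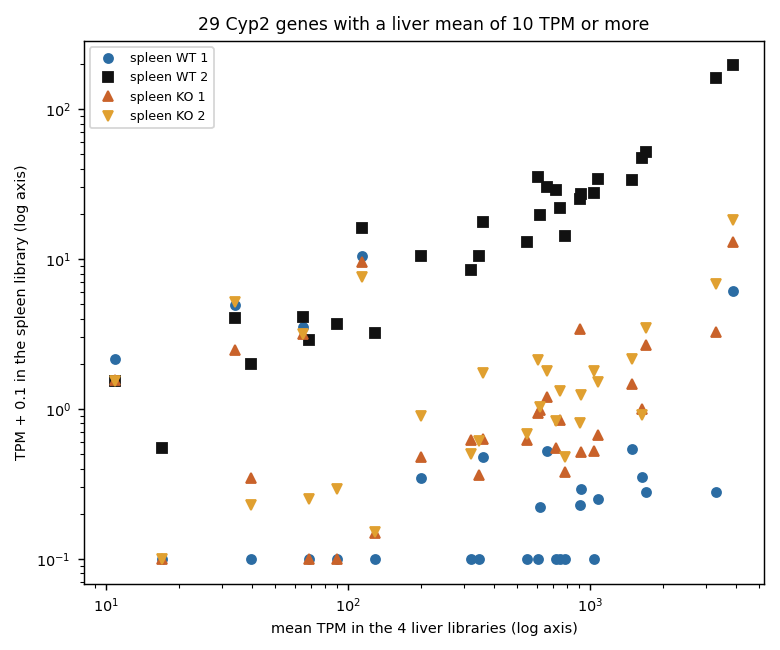
TPM + 0.1 in each spleen library against the mean TPM in the liver (both log axes) for the 29 Cyp2 genes with a liver mean of at least 10 TPM. The black squares of spleen WT 2 rise with the liver level, the 2 KO libraries lie lower, and many genes of WT 1 lie at 0.

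Whether the KO effect differed between organs was tested with the interaction of organ and genotype over all libraries. No gene was called (0% of 23159 genes at an adjusted p under 0.1). At an unadjusted p under 0.05 there were 535 genes and 1 of 45 members, which was Cyp2u1. Without a filter on low counts, 27 members and 2.66% of all 36620 genes passed the interaction test. The count of members stayed 0 in the other 23 of 24 alternatives.

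The Cyp3a and Cyp4 families were measured in the same organs. The 7 genes named Cyp3a and digits alone, which also oxidize drugs, summed to 758 and 847 TPM in number 1 of the intestine. In number 2 they gave 4939 and 4155 TPM, and in the liver 5009 and 5119 TPM in WT and 5237 and 4565 TPM in KO. Names with a letter after the digits were not counted, so these sums need not cover every Cyp3a gene. Of these 7, 4 were called for the liver and 1 for the small intestine (5.15% and 7.11% of all genes). The 20 Cyp4 genes, fatty acid hydroxylases, gave 1 liver call, 2 kidney calls, 3 intestine calls and 2 spleen calls among 18 tested, against 5.15%, 4.75%, 7.11% and 8.93% of all genes. Between the intestine numbers, 3 of 5 Cyp3a genes and 5 of 11 Cyp4 genes tested were higher in number 2 (4.52% of all genes), and 1 of each family was higher in number 1 (3.11%). None of these Cyp3a or Cyp4 genes was called by edgeR in KO against WT in any organ.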

How the data were processed

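RNA-seq was done on 20 libraries, 2 for each organ and genotype. The authors deposited 1 table of raw counts per gene, made after trimming with cutadapt, alignment to mm10 with HISAT2 2.1.0 and counting over exons with featureCounts 2.0.1 (submitters' processing notes and file header). The header command sets no strand option, whereas the study's methods name a strand-specific setting. Which was used is uncertain, and without strand, reads of overlapping genes on opposite strands cannot be told apart. The gene lengths deposited with the counts were used to compute TPM. Counts were tested with edgeR 4.0.16 (R 4.3.3, TMM, filterByExpr, robust quasi-likelihood fits, Benjamini-Hochberg adjustment over all genes), with DESeq2 1.42.0 as an alternative. This order reverses the study's methods, which name DESeq2. Organs were compared over all 20 libraries with a term for each organ and genotype, averaging WT and KO, and KO against WT within each organ. The alternatives were other scalings and filters, a replicate block, WT libraries alone, the number 1 or number 2 intestine libraries alone and each library left out.

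Genes named with values were mainly the highest member of each subfamily and the 3 highest of each organ. Those called in KO against WT or between the intestine numbers were also named, with the highest and lowest fold change of each organ. Examples from fixed lists (sex-biased members, CAR and PXR targets, partners and regulators) were added, and these lists were otherwise given by counts. Cyp2d12, Cyp2j7 and Cyp2j13, called for the kidney, and Cyp2c23 were named outside these rules. The members and lists were chosen with earlier results of these data known. The test was also run on simulated data. Promoters came from RefSeq (GRCm38.p6) and coding sequences from GENCODE M21.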

Additional observations from a re-analysis of the deposited data

Results flagged for a closer look

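Several P450 rows outside the members had counts above what 3 counts would give, and their mean TPM over 4 libraries is given without a test. In the liver these were Cyp2d37-ps at 290.2 TPM, Cyp2d38-ps at 91.2 TPM, Cyp2d36-ps at 23.7 TPM, Cyp2a21-ps at 1.72 TPM, Cyp2d35-ps at 1.27 TPM and Cyp2b27-ps at 1.17 TPM, all annotated as pseudogenes. Cyp2j15-ps had 2.20 TPM in the kidney and Cyp2d41-ps 2.25 TPM in the small intestine. These were the 8 of 23 pseudogene rows with a mean of at least 1 TPM in an organ. Cyp2ab1, whose name has 2 letters after the family number and so fell outside the rule for members, had 1.08 TPM in the spleen. Whether reads of these rows came from near-identical members was not tested.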

How the results depend on the processing

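Counts of called members moved with the processing in several comparisons. For KO against WT, the liver count of 0 became 2 with DESeq2 (0.356% of all genes in that fit) and 3 with no filter on low counts (Cyp2a5, Cyp2b10 and Cyp2c69, beside 0.477% of all genes), and it ranged from 0 to 4 with each library left out (0.0121% to 1.25%). The heart count of 0 became 1 with DESeq2 (0.0107%), 2 with no filter (Cyp2a5 and Cyp2f2, 0.0465%) and 1 with the replicate number as a block (Cyp2f2, 0.0361%), and ranged from 0 to 2 with each library left out (0% to 0.12%). The counts ranged from 0 to 22 in the spleen (0% to 1.86%) and from 0 to 6 in the kidney (0.00539% to 16.1%) with each library left out, and stayed 0 in the small intestine in all 13 alternatives. With no filter 27 members (2.66% of all genes) passed the interaction test, and in the other 23 of 24 alternatives none did. In these leave-one-out fits the lone sample is assumed to vary like the rest.

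For the organs, a filter of at least 10 counts in every library left 1 member called for the small intestine, 1 for the liver and 0 for the kidney (5.84%, 3.58% and 2.43% of all genes), since it removes genes that are absent from 1 organ. The WT libraries alone gave 2 for the small intestine and 14 for the liver (4.35% and 3.09%). Leaving out single libraries gave 3 to 6 for the small intestine, 21 to 27 for the liver and 3 to 4 for the kidney (5.96% to 6.53%, 4.32% to 5.01% and 3.83% to 4.43%). Chosen after seeing the data, the number 1 intestine libraries alone gave 7, 27 and 4 in the same order (6.21%, 5.21% and 4.5%), and the number 2 libraries 6, 25 and 3 (6.34%, 4.94% and 4.69%). For the intestine numbers, an adjusted p under 0.05 left 3 and 0 members (2.07% and 1.33%), the filter of 10 counts left 1 in number 1 (4.02%), and leaving out single libraries gave 5 to 14 for number 2 (1.4% to 7%) and 0 to 4 for number 1 (0.701% to 5.73%). The cause of the moves not explained by the filter was not tested. Cyp2u1 changed sign in 2 settings, to -0.45 against the nearest organ with WT alone and to 0.23 between the intestine numbers without KO 1, where leaving out each library gave -3.49 to 0.23. The leave-one-out fits of the intestine numbers also lack the genotype term, since 3 libraries leave no spread to estimate with it, and with all 4 libraries Cyp2u1 was lower in number 2 within each genotype.

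The labels do not say what libraries with the same number share. Deviations of libraries with the same number correlated at 0.57 for small intestine, 0.04 for liver, 0.01 for spleen, 0.13 for kidney and 0.37 for heart. Segment markers followed the number in the small intestine, as did adipose markers in the heart. Adipose markers in the kidney and distal intestine markers in the spleen followed it too, so this was not limited to the organs with the highest correlation. The block changed only the heart count, where the adjusted p of Cyp2f2 became 0.001 in edgeR. With 2 libraries a group, small differences were not detectable, and 5 members stayed under 1 TPM in all organs.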
